A study of Homo sapiens with 12 samples.

Results

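IGF2BP1, IGF2BP2, IGF2BP3, LIN28A, LIN28B and HMGA2 are 6 genes of an oncofetal programme, active in embryonic tissue, low in most adult tissue and switched on again in many tumours. They were taken by their gene symbol from the 58290 gene-level entries of the deposited tables, by a rule that uses no measured values, and all 6 were found, each under 1 gene ID and in 51 transcript models in all. A count filter over all genes kept 16297 genes for testing, among them IGF2BP1, IGF2BP2, IGF2BP3, LIN28B and HMGA2, while LIN28A did not pass it. HMGA2 is an architectural DNA-binding protein and not an RNA-binding one, and stands here as the best known shared target of the pathway.

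The 3 IGF2BP proteins bind mRNAs in the cytoplasm, among them mRNAs carrying m6A, and are known for stabilising and transporting them. LIN28A and LIN28B bind precursors of the let-7 microRNAs and block their maturation. Mature let-7 in turn represses mRNAs with a matching site in their 3′UTR, among them those of LIN28B, HMGA2 and the IGF2BP genes. High LIN28B and high levels of these let-7 targets are known to go together in embryonal cells and in tumours.

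Polyadenylated RNA of HEK-293T cells was sequenced in 12 libraries; HEK-293T is an established line of human embryonic kidney that carries the SV40 large T antigen. All libraries came from cells holding a CIRTS effector, an RNA-targeting protein assembled from human parts and steered by a guide RNA. The effector was CIRTS-12, labelled as a nuclease, in nuclease-NT and nuclease-SMARCA4, and CIRTS-3, made with the m6A reader YTHDF2, in the groups named for it. The guide was non-targeting (NT) in 1 group of each effector and directed against SMARCA4, a chromatin remodelling ATPase, in the other, with 3 libraries per group. Firefly and renilla luciferase reporters are entries of every table. The series calls the libraries of a group biological replicates without saying how cultures or batches were laid out, so each p-value here reflects only how far these samples spread, and an effect of the effector and of a batch handled along with it cannot be told apart. Bulk RNA also cannot tell fewer expressing cells from less RNA per cell.

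Library totals lay between 9207196 and 18047859 estimated counts, with 23001 to 25583 genes counted per library. SMARCA4 itself had between 225 and 245 CPM in nuclease-NT, 220 to 250 in nuclease-SMARCA4, 235 to 302 in YTHDF2-NT and 210 to 243 in YTHDF2-SMARCA4. CPM are counts scaled to a common library size with the trimmed mean of M values (TMM). The guide groups of SMARCA4 overlapped with both effectors. Its guide difference with the nuclease was −0.01 on the log2 scale (edgeR quasi-likelihood test, adjusted p = 0.985). With YTHDF2 it was −0.22, lower with the SMARCA4 guide (same edgeR test, unadjusted p = 0.0337, adjusted p = 0.703). There 6.82% of all genes had an unadjusted p below 0.05. Neither difference passed after adjustment over all genes, so the targeted mRNA does not separate the guide groups by that threshold. All 10 genes of a list typical of HEK-293T, such as vimentin (VIM) and the neurofilament gene NEFM, were expressed, at a summed 1137 to 1427 CPM. Markers of other cells were far lower, with summed levels of 11.7 to 34.0 CPM for 10 pluripotent cell genes, 12.1 to 17.2 for 8 fibroblast genes, 7.40 to 10.6 for 8 epithelium genes, 0.973 to 3.19 for 8 blood genes and 0.4996 to 1.30 for 8 liver genes. By group, the pluripotent cell genes summed to 15.6 to 16.6 CPM in nuclease-NT, 15.9 to 20.6 in nuclease-SMARCA4, 16.7 to 34.0 in YTHDF2-NT and 11.7 to 21.1 in YTHDF2-SMARCA4, and their part in the results was not tested. Of those 10 genes, 5 passed the count filter, with means of 7.25 TPM for DPPA4, 3.57 for SOX2, 0.552 for POU5F1, 0.327 for ESRG and 0.126 for NANOG (TPM are counts divided by transcript length and scaled to a fixed library sum). In the HEK-293T list VIM and NEFM were the highest, at 425 and 89.2 TPM. PAX2 and LHX1 of that list had 1.03 and 3.58 TPM, below DPPA4, so its sum does not speak for each gene. The keratin genes KRT8 and KRT18, at 28.2 and 59.6 TPM, stand in the HEK-293T list, while KRT5, KRT14 and KRT19 stand in the epithelium list. The low epithelium sum depends on that assignment.

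The mature let-7 family is shown first, since its seed, bases 2 to 8 in capitals, has a match in the 3′UTR of all 6 mRNAs. Among mature names of let-7 and miR-98, RefSeq (GRCh38.p14) lists 9 from 12 loci with the same seed, and other names were not searched. Of these, 4 are printed to show how the bases after the seed differ.
hsa-let-7a-5p: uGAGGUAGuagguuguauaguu
hsa-let-7d-5p: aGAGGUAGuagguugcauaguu
hsa-let-7i-5p: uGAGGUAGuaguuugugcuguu
hsa-miR-98-5p: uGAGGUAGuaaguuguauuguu

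Mature let-7 was not measured in these poly(A) libraries, so the sequences are context for the mRNAs and not a readout.

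The complement of the seed, CTACCTC, was searched on the mRNA strand in the 3′UTR of the leading transcript model of each gene, the one with the most TPM, in GENCODE 29 (GRCh38). A match followed by A is called an 8-base match and the others 7-base matches. The match nearest the stop codon is printed for each gene, with the 20 bases before it and the match in capitals. Each of these lies within 1 exon, in the 3′UTR, and the coordinates give the printed bases.
HMGA2, chr12:65963293-65963320, plus strand: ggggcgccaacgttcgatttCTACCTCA
LIN28B, chr6:105078807-105078834, plus strand: cctttacccggttgcaaagtCTACCTCA
IGF2BP1, chr17:49051056-49051083, plus strand: aatgctgtgtgcgaagtaaaCTACCTCA
IGF2BP2, chr3:185644220-185644247, minus strand: agaaaaacacacagaagaagCTACCTCA
IGF2BP3, chr7:23311795-23311822, minus strand: aaacgtgcatttttactcaaCTACCTCA
LIN28A, chr1:26427343-26427370, plus strand: ggagtgcacagcctattgaaCTACCTCA

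All 6 mRNAs held at least 1 match, and the printed one is an 8-base match in each. IGF2BP1 had 4 matches in 6206 bases of 3′UTR, of which 3 were 8-base, LIN28B had 4 in 4549 bases with 2 of 8 bases, and HMGA2 had 4 in 3003 bases with 1 of 8 bases. IGF2BP2, IGF2BP3 and LIN28A had 1 each, in 1792, 2153 and 3264 bases. The HMGA2 match shown begins 21 bases after the stop codon and that of LIN28B 44 bases after it, while those of IGF2BP3, LIN28A, IGF2BP2 and IGF2BP1 begin 560, 905, 1304 and 1632 bases after it.

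Over the whole transcriptome, 1378 of 19360 3′UTRs (7.1%) held the same letters. Since long 3′UTRs hold more chance matches, each gene was also set beside 3′UTRs within 20% of its length. A match was present in 31.2% of those as long as that of IGF2BP1, 22.9% for LIN28B, 15.8% for LIN28A, 14.1% for HMGA2, 12.2% for IGF2BP3 and 10.8% for IGF2BP2. As many as 4 matches were found in 0.595% of 3′UTRs like that of IGF2BP1 and 0.205% of those like that of LIN28B. None of the other 3′UTRs of about the length of HMGA2 held as many. A match of letters is a description and does not show that the site is used.

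**Figure D1:**
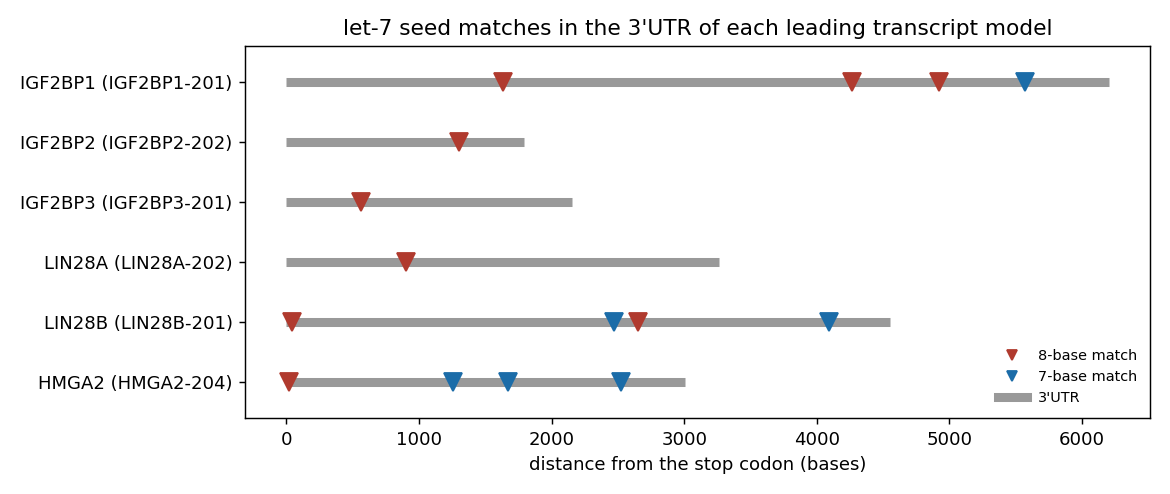
Position of let-7 seed matches (triangles, red for 8 bases and blue for 7) along the 3′UTR (grey bar) of the leading transcript model of each gene, with the distance from the stop codon in bases on the x axis. IGF2BP1, LIN28B and HMGA2 carry 4 matches each and the other genes 1, and the matches of HMGA2 and LIN28B nearest the stop codon lie 21 and 44 bases after it.

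Levels between genes are compared in TPM, summed per gene. IGF2BP1 was the highest of the 6 in every library, at 37.6 ± 6.02 TPM (SD over 12 libraries), a level above 79.7% of the genes tested. IGF2BP2 followed at 23.1, HMGA2 at 22.0, IGF2BP3 at 20.04 and LIN28B at 15.5 TPM. These 4 means lie between the 62.6 and 70.9 percentiles of the genes tested.

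The order in the middle was not fixed. IGF2BP2 came second in 8 of the 12 libraries, HMGA2 in the 3 libraries of nuclease-SMARCA4 and IGF2BP3 in YTHDF2-NT replicate 2, so these neighbours do not differ beyond their spread between libraries. LIN28B was the fifth in 10 of 12 libraries and stood above IGF2BP3 in YTHDF2-NT replicates 1 and 3. LIN28A was lowest in every library, at 0.101 TPM on average.

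IGF2BP1, on chromosome 17 (48997412 to 49055650, plus strand, GRCh38), is the family member known to bind the mRNAs of MYC and beta-actin. It had 292, 270 and 260 CPM in nuclease-NT, 267, 250 and 252 in nuclease-SMARCA4, 233, 333 and 260 in YTHDF2-NT, with 269, 264 and 254 CPM in YTHDF2-SMARCA4. Replicates 1 and 2 of YTHDF2-NT were the lowest and the highest of all 12 libraries, and the groups overlapped in all 4 pairwise comparisons. The SMARCA4 guide went with a difference of −0.10 on the log2 scale (SE 0.105) with the nuclease and −0.07 (SE 0.105) with YTHDF2.

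IGF2BP2, on chromosome 3 (185643739 to 185825056, minus strand), is the family member that stays expressed in adult tissue. It stood at 75.2, 73.8 and 85.2 CPM in nuclease-NT, 73.3, 74.9 and 72.2 in nuclease-SMARCA4, 72.6, 75.4 and 75.0 in YTHDF2-NT, with 76.4, 77.5 and 72.9 in YTHDF2-SMARCA4. Apart from nuclease-NT replicate 3, the 12 libraries lay between 72.2 and 77.5 CPM. Its biological coefficient of variation, the replicate spread of the fitted model, was 6.26%, against a median of 11.4% over all genes and lower than in all but 3.98% of them. Among 2152 genes of similar level it was lower than in all but 10.3%.

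IGF2BP3, on chromosome 7 (23310209 to 23470467, minus strand), is mostly silent in adult tissue and is used as a tumour marker. It had 66.8, 68.7 and 63.2 CPM in nuclease-NT, 74.1, 61.9 and 68.2 in nuclease-SMARCA4, 28.6, 85.7 and 49.1 in YTHDF2-NT, with 71.5, 69.3 and 55.5 in YTHDF2-SMARCA4. The YTHDF2-NT libraries held both the lowest and the highest values of the series, 2.99-fold apart, and overlapped with every other group. Its coefficient of variation of 22.4% was above that of 82.9% of all genes and of 99.8% of 2442 genes of similar level.

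LIN28B, on chromosome 6 (104936616 to 105083332, plus strand), blocks let-7 maturation. Its values were 84.0, 70.4 and 74.1 CPM in nuclease-NT, 80.6, 73.8 and 76.1 in nuclease-SMARCA4, 62.6, 101 and 74.4 in YTHDF2-NT, with 83.7, 80.7 and 76.0 in YTHDF2-SMARCA4. Here too YTHDF2-NT replicate 1 was the lowest and replicate 2 the highest, and the groups overlapped in all 4 pairwise comparisons.

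LIN28A, on chromosome 1 (26410778 to 26429722, plus strand), is the paralogue known from pluripotent cells, where it has the same action on let-7. It had 2.09, 4.06 and 2.31 estimated counts in nuclease-NT, 6.10, 3.01 and 3.41 in nuclease-SMARCA4, 6.10, 0 and 7.03 in YTHDF2-NT, with 9.36, 6.26 and 12.1 in YTHDF2-SMARCA4. That is 0 to 0.749 CPM, where 3 counts, the upper limit that a count of 0 allows, correspond to 0.166 to 0.326 CPM depending on the library. With 3 libraries under that limit, 1 of them at 0, no fold change is given, and only LIN28B of the 2 paralogues was measured well enough to compare conditions.

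HMGA2, on chromosome 12 (65824131 to 65966295, plus strand), had 88.4, 86.4 and 88.5 CPM in nuclease-NT, 99.2, 93.8 and 98.5 in nuclease-SMARCA4, 69.2, 96.1 and 77.4 in YTHDF2-NT, with 89.8, 84.4 and 86.0 in YTHDF2-SMARCA4. All 3 libraries of nuclease-SMARCA4 were above those of nuclease-NT and of YTHDF2-SMARCA4. The nuclease-SMARCA4 mean was 97.2 ± 2.90 CPM (SD, n = 3) and that of nuclease-NT 87.8 ± 1.16.

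**Figure D2:**
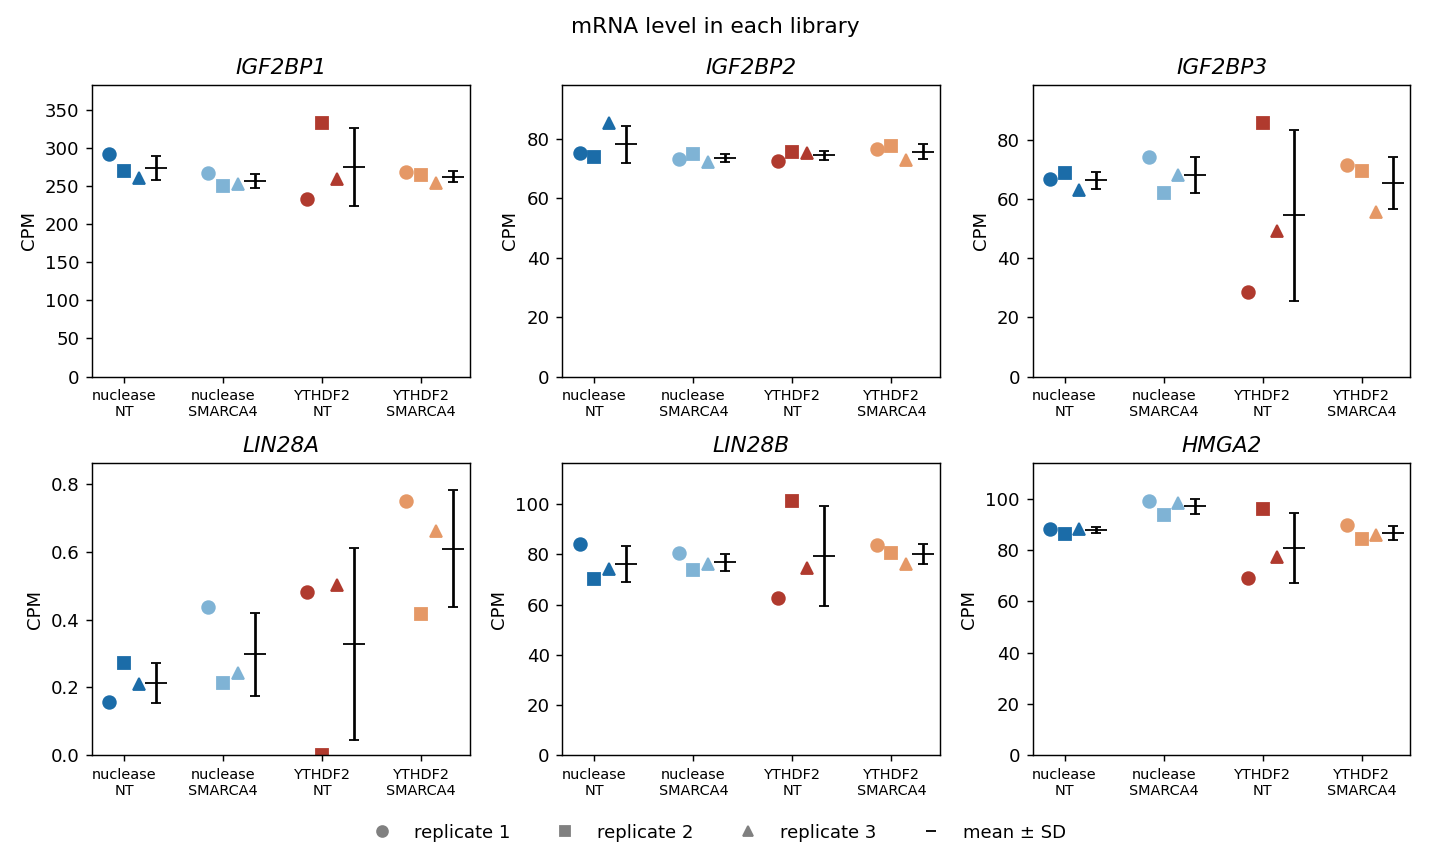
CPM (y axis, from 0) of the 6 genes in each library by group (x axis), with the replicates as symbols and the mean ± SD of 3 libraries as bars. Values lie close together except in YTHDF2-NT, where IGF2BP3 ranges from 28.6 to 85.7 CPM, and LIN28A stays below 0.75 CPM throughout.

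The guide comparisons ask whether the SMARCA4 guide changed these mRNAs. With the nuclease, HMGA2 was 10.7% higher with the SMARCA4 guide (log2 difference 0.15, SE 0.097, 95% interval −4.23% to 28.0%), and IGF2BP1 and IGF2BP2 differed by −6.39% and −5.79%, that is, were lower with it. IGF2BP3 and LIN28B differed by 2.67% and 0.855%. By edgeR's quasi-likelihood test with Benjamini-Hochberg adjustment over all genes, 0 of the 5 tested members passed, with adjusted p-values from 0.610 for HMGA2 to 0.985 for LIN28B. None had an unadjusted p below 0.05, and DESeq2 called 0. The same test called 0.00614% of all genes (1 of 16297), and 10.9% had an unadjusted p below 0.05.

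HMGA2 was also the 1 member of 5 whose nuclease groups did not overlap, a state shared by 25.1% of all genes tested. Its exact two-sided permutation p was 0.1, the smallest that 3 against 3 libraries can give. The intervals of the other members reached from −20.04% to 9.58% for IGF2BP1, −15.2% to 4.72% for IGF2BP2, −30.5% to 51.8% for IGF2BP3 and −17.8% to 23.7% for LIN28B. Differences within those bounds are not excluded by this fit, which estimates the spread over all 4 groups, YTHDF2-NT included. With only the groups compared, the SE on the log2 scale was 0.073 for IGF2BP3, beside 0.262 in the main fit. It was 0.055 beside 0.105 for IGF2BP1 and 0.064 beside 0.071 for IGF2BP2.

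With YTHDF2, IGF2BP3 was 20.1% higher with the SMARCA4 guide (log2 difference 0.26, SE 0.263, interval −18.9% to 77.9%) and HMGA2 7.26% higher. IGF2BP1, IGF2BP2 and LIN28B differed by −4.65%, 1.68% and 0.928%. Of the 5 members tested with edgeR's quasi-likelihood test, 0 passed (adjusted p 0.798 to 0.982), 0 had an unadjusted p below 0.05 and DESeq2 called 0. Over all genes the share called was 0.0%, 6.82% had an unadjusted p below 0.05 and 9.27% had groups that did not overlap, against 0 of the 5 members.

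The guide effects with the 2 effectors were then compared directly. Their difference, as a log2 value of the YTHDF2 effect less the nuclease effect, was 0.23 for IGF2BP3 (SE 0.371), 0.11 for IGF2BP2, 0.03 for IGF2BP1, 0.001 for LIN28B and −0.05 for HMGA2. This test called 0 of 5 members (edgeR adjusted p 0.689 to 0.999, 0 with an unadjusted p below 0.05, 0 by DESeq2) and 0.0% of all genes, with 11.1% at an unadjusted p below 0.05.

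The effector comparisons set YTHDF2 against the nuclease under the same guide. With the NT guide, IGF2BP3 differed by −17.98% (lower with YTHDF2, log2 difference −0.29, SE 0.264, interval −44.7% to 21.7%), HMGA2 by −7.86% and IGF2BP2 by −4.70%, while LIN28B was 4.197% and IGF2BP1 0.345% higher. None of the 5 passed edgeR's test (adjusted p 0.699 to 0.992), none had an unadjusted p below 0.05, and DESeq2 called 0, beside 0.0491% of all genes called (8 of 16297) and 10.9% at an unadjusted p below 0.05. In CPM the libraries of the 2 groups overlapped for all 5, while 12.8% of all genes had no overlap. In TPM those of IGF2BP2 did not overlap, as for 15.4% of all genes.

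With the SMARCA4 guide, HMGA2 differed by −10.7%, with YTHDF2 below the nuclease (log2 difference −0.16, SE 0.097, interval −22.8% to 3.14%). Its groups did not overlap in CPM, as for 26.7% of all genes, but overlapped in TPM. The exact permutation p was again 0.1. IGF2BP1, IGF2BP2, IGF2BP3 and LIN28B differed by 2.22%, 2.86%, −4.03% and 4.27%. This comparison called 0 of 5 members (edgeR adjusted p 0.538 to 0.949, 0 with an unadjusted p below 0.05, 0 by DESeq2) and 0.00614% of all genes, with 11.5% at an unadjusted p below 0.05. The 2 results on HMGA2 share the nuclease-SMARCA4 libraries, the highest of the 4 groups.

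**Figure D3:**
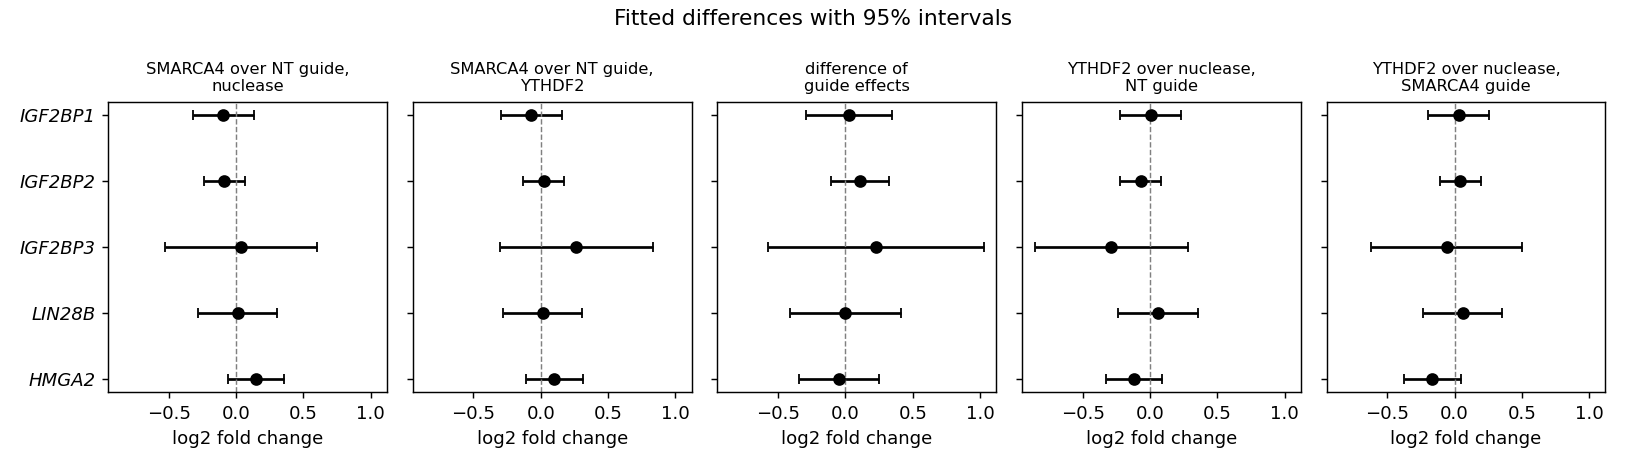
Log2 fold change (x axis) with its 95% interval for the 5 tested genes in each of the 5 comparisons. Every interval crosses 0, and those of IGF2BP3 are the widest, reaching from −18.9% to 77.9% for the guide with YTHDF2.

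The calls for IGF2BP3 and HMGA2 turned on 1 library. Without YTHDF2-NT replicate 2, IGF2BP3 was higher with the SMARCA4 guide by 0.75 on the log2 scale (SE 0.171, edgeR adjusted p = 0.0262) and lower in YTHDF2-NT than in nuclease-NT by 0.77 (log2 difference −0.77, edgeR adjusted p = 0.0184). HMGA2 was then also called in both, at 0.25 (adjusted p = 0.0420) and −0.27 (adjusted p = 0.0326) by edgeR. Over all genes that fit called 1585 of 16760 genes (9.46%) and 1610 (9.61%), with 3.87% of genes called higher in the guide comparison and 4.02% called lower in the effector comparison. The difference of guide effects was 0.71 for IGF2BP3 in that fit (edgeR adjusted p = 0.0614), where 8.62% of all genes were called and 0 of 5 members.

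Without YTHDF2-NT replicate 1 instead, the differences of IGF2BP3 were −0.04 and 0.02 on the log2 scale, so the direction also depended on which library was left out. IGF2BP1, IGF2BP2 and LIN28B were not called under any left-out library. The lowest adjusted p any of them reached was 0.122, for LIN28B in the YTHDF2 guide comparison without YTHDF2-NT replicate 2.

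The members differed in how far the YTHDF2-NT libraries spread. The SD of log2 CPM in that group was 0.79 for IGF2BP3, 0.35 for LIN28B, 0.26 for IGF2BP1, 0.24 for HMGA2 and 0.03 for IGF2BP2, beside a median of 0.25 over all genes. IGF2BP3 was wider than 95.6% of the genes and IGF2BP2 wider than 1.88%.

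A trend of log2 CPM with transcript length was fitted over all genes in each library. In YTHDF2-NT replicate 1 IGF2BP1 deviated by −0.19 from its mean of 12 libraries where the trend for its length was −0.28, LIN28B by −0.31 where it was −0.25, and HMGA2 by −0.34 where it was −0.21. IGF2BP3 deviated by −1.10 where the trend was −0.17. In replicate 2 the values were 0.32 against 0.26 for IGF2BP1, 0.38 against 0.18 for LIN28B, 0.13 against 0.14 for HMGA2 and 0.47 against 0.11 for IGF2BP3.

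IGF2BP1 and HMGA2 were thus within 0.13 of the trend in these 2 libraries, and IGF2BP3 was 0.93 below it in replicate 1 and 0.36 above it in replicate 2. With the trend removed from every library, 0 of 5 members were called in any comparison. IGF2BP1 then differed by −0.13 in the YTHDF2 guide comparison (SE 0.044, interval −0.22 to −0.03, unadjusted p = 0.0125, edgeR adjusted p = 0.507), beside −0.07 without this step. The guide difference of HMGA2 with the nuclease was then 0.18 (SE 0.054, interval 0.07 to 0.30, edgeR unadjusted p = 0.00443, adjusted p = 0.149). Its effector difference with the SMARCA4 guide was −0.20 (SE 0.053, interval −0.31 to −0.09, edgeR unadjusted p = 0.00209, adjusted p = 0.121). Both intervals leave out 0, and neither difference passed after adjustment.

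**Figure D4:**
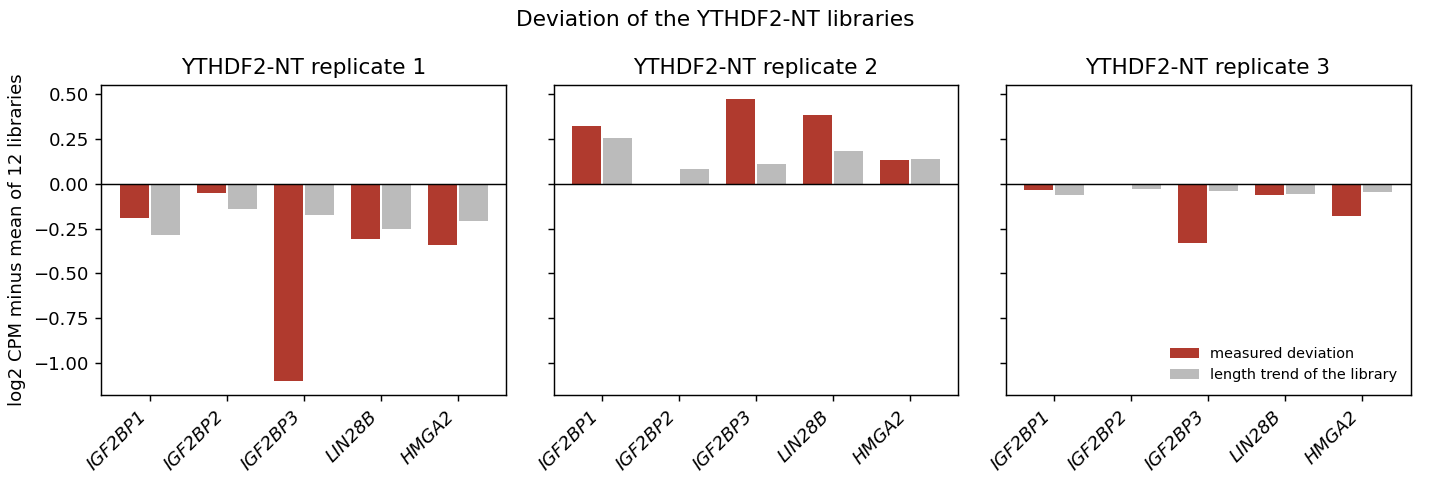
Deviation of log2 CPM from the mean of 12 libraries (y axis) for the 5 tested genes in the 3 YTHDF2-NT libraries, as measured (red bars) and as given by the library's trend with transcript length (grey bars). IGF2BP3 stands 1.10 below its mean in replicate 1 where the trend gives 0.17 below it.

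IGF2BP3 shares sequence with a neighbour. MALSU1, a factor of mitochondrial ribosome assembly, lies on the opposite strand of chromosome 7 (23298739 to 23311729), and its model MALSU1-202 runs through the end of the IGF2BP3 gene. Of 4220 stretches of 31 bases in IGF2BP3-201, 1491 occur on the opposite strand in MALSU1-202, all of them in the 3′UTR, 633 to 2153 bases after the stop codon. The let-7 match printed above, 560 bases after the stop codon, lies before that stretch.

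The sources used here do not state whether counting used strand, so reads of both genes may be mixed there. MALSU1 had 47.7, 44.2 and 48.4 CPM in nuclease-NT, 48.9, 52.1 and 49.98 in nuclease-SMARCA4, 76.4, 47.1 and 61.1 in YTHDF2-NT, with 42.2, 50.2 and 54.8 in YTHDF2-SMARCA4. Its highest libraries, YTHDF2-NT replicates 1 and 3, were the 2 lowest of IGF2BP3. The sum of both genes ran from 105 to 133 CPM, a narrower range than that of IGF2BP3 alone. That sum takes in all MALSU1 models, of which only MALSU1-202 shares stretches with IGF2BP3-201. MALSU1-202, of 3044 bases, had a mean of 6.94 TPM. MALSU1-201 and MALSU1-203, of 572 and 479 bases, had 41.7 and 58.3 TPM and share 0 stretches, so their reads cannot be mixed in this way.

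By edgeR's test MALSU1 differed by −0.32 on the log2 scale in the YTHDF2 guide comparison (adjusted p = 0.703) and by 0.40 in the effector comparison with the NT guide (adjusted p = 0.334). The part of this overlap in the spread of IGF2BP3 was not tested. The other members share less on the opposite strand, counted over transcripts of all other genes, with 6.46% of the stretches for LIN28A and at most 0.204% for the rest. On the same strand 21.6% of the stretches of IGF2BP2-202, 16.5% of those of IGF2BP3-201 and 8.65% of those of LIN28A-202 occur in other genes, so their counts carry that uncertainty. The gene sharing most with IGF2BP2-202, AC020629.1 with 436 stretches, had at most 1.11 estimated counts in any library. Between the 6 genes themselves only 6 such stretches were shared, all in LIN28A.

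**Figure D5:**
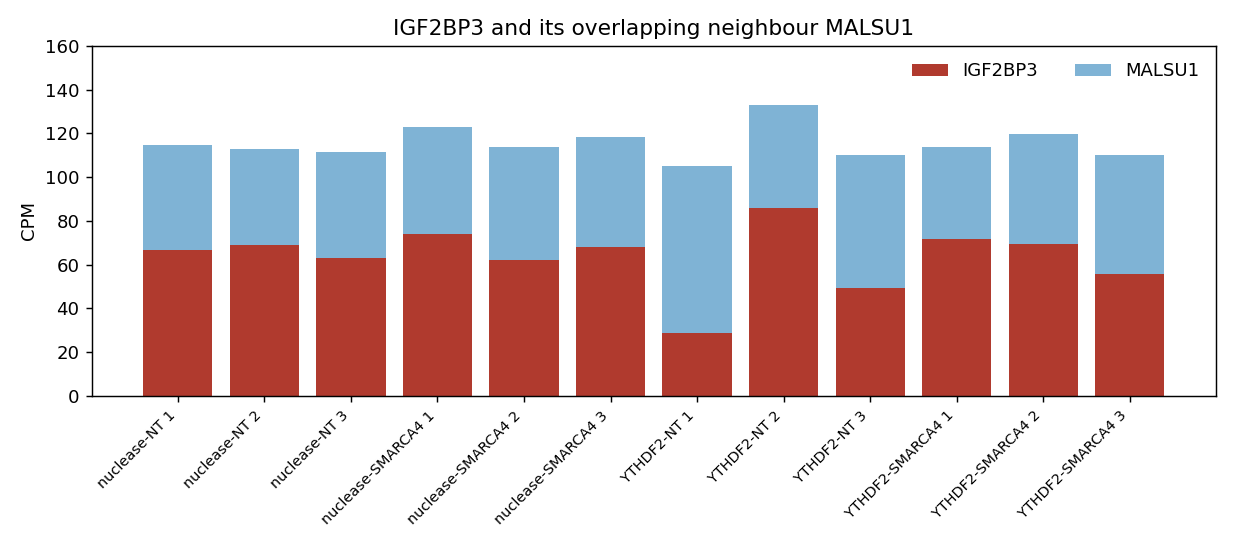
CPM of IGF2BP3 (red) and MALSU1 (blue) stacked for each library (x axis). The sum stays between 105 and 133 CPM while IGF2BP3 alone runs from 28.6 to 85.7 CPM.

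Each gene was carried mostly by 1 transcript model. The leading model held 99.7% of the TPM of LIN28B in nuclease-NT (LIN28B-201), 97.7% for HMGA2 (HMGA2-204), 91.0% for IGF2BP2 (IGF2BP2-202) and 88.7% for IGF2BP1 (IGF2BP1-201), and in the other groups these shares lay between 90.9% and 100%. IGF2BP3 was split further, with 64.0% to 81.4% in IGF2BP3-201 and 15.6% to 19.998% in IGF2BP3-218 by group. A further model, IGF2BP3-215, held 10.98% in nuclease-NT and was at 0 in the other groups. That share rests on few counts, as this model of 452 bases had 0.396, 0 and 1.57 CPM in the nuclease-NT libraries, most of it in replicate 3. As kallisto divides reads among overlapping models, these shares are estimates.

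IGF2BP3-218 is 2126 bases long and all but 30 of its 2096 stretches of 31 bases are also in IGF2BP3-201. It had 6.81, 5.20 and 8.40 CPM in nuclease-NT, 8.20, 9.05 and 5.94 in nuclease-SMARCA4, 0, 8.56 and 4.46 in YTHDF2-NT, with 5.46, 8.40 and 6.02 in YTHDF2-SMARCA4. It was thus listed at 0 in YTHDF2-NT replicate 1, where IGF2BP3-201 was also at its lowest with 27.3 CPM. Of 49518 models tested, 9 belong to these genes, and edgeR called 0 of the 9 in any comparison, beside 0.00202%, 0.00606%, 0.00606%, 0.00404% and 0.00808% of all models in the nuclease guide comparison, the YTHDF2 guide comparison, their difference and the effector comparisons with the NT and the SMARCA4 guide.

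The guide comparison with the nuclease gave other ratios in TPM. IGF2BP1 was at 42.1 ± 0.277 (SD, n = 3) in nuclease-NT and 34.6 ± 1.47 in nuclease-SMARCA4, a log2 ratio of −0.29, and the ratios were −0.21 for IGF2BP2, −0.30 for IGF2BP3, −0.10 for LIN28B and 0.02 for HMGA2. The median gene had a log2 TPM ratio of −0.11 in the same comparison, against 6.03e-05 in CPM, so relative to it the TPM ratio of LIN28B was near 0 and that of HMGA2 above it. The TPM of the groups did not overlap for IGF2BP1, IGF2BP2 and IGF2BP3, as for 24.2% of all genes, while HMGA2, which did not overlap in CPM, overlapped in TPM. The IGF2BP3 values include IGF2BP3-215, which rests on few counts. That model held 10.98% of the gene's TPM in nuclease-NT and 0% in nuclease-SMARCA4, and the ratio without it was not computed.

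The machinery around the pathway was read from gene lists. Of 23 genes that process microRNAs or act on let-7, such as DICER1, DROSHA, the TUT4 and TUT7 uridylyltransferases and DIS3L2, all 23 were tested and 0 were called in any comparison. Over all genes the share called was at most 0.0491% in any comparison, which stands beside the lists below as well. With the nuclease the fitted guide difference was above 0 for 4 and below 0 for 19, with a median of −0.12 on the log2 scale beside −0.00025 over all genes, and 5 of 23 had an unadjusted p below 0.05, against 10.9% of all genes. With YTHDF2 it was above 0 for 13 and below 0 for 10, with a median of 0.01 beside −0.009 over all genes, and 2 of 23 had an unadjusted p below 0.05, against 6.82% of all genes.

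Between effectors with the NT guide these 23 genes had a median of −0.009 beside 0.006 over all genes, with 3 of 23 at an unadjusted p below 0.05 against 10.9% of all genes. With the SMARCA4 guide the median was 0.10 beside 0.0007, and 8 of 23 had an unadjusted p below 0.05 against 11.5% of all genes. The 2 highest by TPM were HNRNPA1, an RNA-binding protein that restrains let-7a processing, and DDX5, an RNA helicase of the Drosha complex. HNRNPA1, whose many pseudogenes make its count uncertain, had 2726 ± 66.5 CPM (SD, n = 3) in nuclease-NT and 3157 ± 107 in nuclease-SMARCA4 (log2 difference 0.21, edgeR adjusted p = 0.292). DDX5 had 456 ± 46.6 and 362 ± 34.9 CPM in these groups (log2 difference −0.34, edgeR adjusted p = 0.223). Both missed the threshold in every comparison.

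Of 8 transcripts that host let-7 genes, 5 passed the count filter and 0 were called, with 0 at an unadjusted p below 0.05 in all 5 comparisons. Among all genes 6.82% to 11.5% had such a p by comparison. The 2 highest were WDR82, whose locus holds let-7g, at 198 ± 5.42 CPM in nuclease-NT, and HUWE1, whose introns hold let-7f-2 and miR-98, at 204 ± 25.9 CPM. WDR82 differed by 0.02 with the guide and the nuclease and by −0.05 with YTHDF2, and HUWE1 by −0.12 and −0.006, on the log2 scale. The levels of host transcripts do not give the level of mature let-7.

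Other known let-7 target mRNAs, 28 in the list, had 27 members tested and 0 called. The guide difference with the nuclease was above 0 for 20 and below 0 for 7, with a median of 0.04, and with YTHDF2 above 0 for 11 and below 0 for 16, with a median of −0.04, beside all-gene medians of −0.00025 and −0.009. An unadjusted edgeR p below 0.05 was found for 4 of 27 with the nuclease, against 10.9% of all genes. With YTHDF2 it was found for 2 of 27, against 6.82%. Their 2 highest members were NAP1L1, a histone chaperone, and HMGA1, the paralogue of HMGA2, and both have pseudogenes. HMGA1 had 316 ± 18.3 CPM in nuclease-NT and 368 ± 28.6 in nuclease-SMARCA4 (log2 difference 0.22, edgeR adjusted p = 0.356), beside 0.15 for HMGA2. NAP1L1 differed by 0.16 (adjusted p = 0.491).

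All genes were then divided by the let-7 seed match in their 3′UTR. In the guide comparison with the nuclease the median log2 difference was 0.006 for 12101 genes with no match, −0.02 for 1004 with 1 and −0.06 for 109 with 2 or more. With YTHDF2 the order was the opposite, at −0.007, 0.02 and 0.04. The difference of guide effects gave −0.006, 0.05 and 0.09, the effector comparison with the NT guide 0.005, −0.05 and −0.08, and that with the SMARCA4 guide −0.003, 0.005 and 0.05. The median 3′UTR length was 766, 2372 and 4064 bases in these classes. With the length trend removed the medians of the nuclease guide comparison were 0.008, 0.01 and 0.001. The other comparisons with the trend removed gave medians of −0.03 to 0.005 for genes with 2 or more matches.

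Of 21 partners and bound mRNAs of the IGF2BP proteins, 19 were tested and 0 called. The highest were ACTB, the beta-actin mRNA bound by IGF2BP1, and PABPC1, the poly(A)-binding protein. ACTB, which has pseudogenes, had 1754 ± 11.6 CPM in nuclease-NT and 1858 ± 66.8 in nuclease-SMARCA4 (log2 difference 0.08, edgeR adjusted p = 0.791), and 1906 ± 321 in YTHDF2-NT and 1694 ± 22.9 in YTHDF2-SMARCA4 (−0.17, adjusted p = 0.706). PABPC1 differed by 0.12 and 0.02. The list's medians were 0.0003 with the nuclease and −0.04 with YTHDF2, beside the same all-gene medians. With the nuclease 10 genes were above 0 and 9 below, and 6 of 19 had an unadjusted edgeR p below 0.05, against 10.9% of all genes. With YTHDF2 8 were above 0 and 11 below, and 1 of 19 had such a p, against 6.82% of all genes.

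Of 14 further oncofetal genes, 11 were tested and 0 called, while AFP, DLK1 and CRABP1 did not pass the count filter, with 1, 0 and 2 estimated counts over the 12 libraries. In the guide comparisons 1 of 11 had an unadjusted edgeR p below 0.05 with the nuclease, against 10.9% of all genes. With YTHDF2 0 of 11 had such a p, against 6.82%. GPC3, a fetal cell-surface proteoglycan, had 84.1 ± 6.17 CPM in nuclease-NT and 107 ± 4.74 in nuclease-SMARCA4 (log2 difference 0.35, edgeR adjusted p = 0.246). PRAME, a cancer-testis antigen, had 32.2 ± 1.41 and 29.7 ± 0.739 CPM (−0.12, adjusted p = 0.742). At a mean of 56.3 TPM, GPC3 stood above the means of all 6 genes.

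The pattern of each gene over the 12 libraries was compared with 11482 genes of at least 5 CPM by the Pearson r of log2 CPM. IGF2BP3 was most like IRS4 (r = 0.987), FNDC3A (0.983) and MTPN (0.980), and LIN28B most like NR1D2 (0.971), DSP (0.966) and IMPAD1 (0.963). IGF2BP1 was most like TBC1D14 (0.949), PRKDC (0.948) and HCFC1 (0.943), and HMGA2 most like NID2 (0.973), GLUD1 (0.964) and HSDL2 (0.958). IGF2BP2, the steadiest, had its nearest genes at lower r, with AC005332.9 (0.849), FAM120AOS (0.829) and RAD51D (0.808).

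Among the members, r over 12 libraries was 0.896 between IGF2BP1 and LIN28B, 0.872 between IGF2BP3 and HMGA2 and 0.135 between IGF2BP1 and IGF2BP2. Over the 9 libraries other than YTHDF2-NT these values were 0.543, 0.357 and 0.049. The points share each library's depth and length trend, and the high values rest on the YTHDF2-NT libraries.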

How the data were processed

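The authors deposited 1 table per library with, per the file headers, the length, effective length, estimated count and TPM of each of 200403 targets (200401 transcripts and 2 luciferase reporters). The estimated counts and the deposited TPM were made with kallisto on the hg38 build, per the submitters' processing notes. Those notes list sleuth as well, and no versions. Kallisto divides a read between the transcripts it fits. Per the labels, RNA came from RNeasy columns and mRNA libraries from the KAPA HyperPrep chemistry. Of the transcripts, 197690 matched GENCODE 29 by identifier, all of them with the same length, and 3′UTRs were taken from that annotation. Protein sequences were not used here.

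Estimated counts were summed per gene ID and rounded. Genes past filterByExpr (16297) entered 1 edgeR model (version 4.0.16, R 4.3.3) of all 12 libraries, with TMM factors, a mean for each group and 8 residual degrees of freedom, where the median coefficient of variation was 11.4%. Quasi-likelihood tests were two-sided, and called means an adjusted p below 0.05 by Benjamini and Hochberg's method with every gene counted. The script was tested on simulated data with known changes. Exact permutation tests compared log2 CPM of 3 against 3 libraries. TPM values were summed per gene for levels between genes and keep no depth. The limit for a count of 0 is 3 counts, and it covers counting error only, as intervals are for 95% confidence.

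The alternatives were RLE size factors, DESeq2 1.42.0, no count filter, only the groups compared, a replicate block, removal of each library's lowess trend with transcript length (span 0.3), leaving out each library, and TPM for levels. Named genes were the 6 members, the 3 most alike genes of each, transcript models with at least 10% of a gene's TPM in a group, and in each list the called genes and the 2 highest by TPM. The rule for the members reads gene symbols alone, but the members and lists were chosen with earlier results of these data known. MATR3, in the list of IGF2BP partners, has several gene IDs and was skipped.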

Additional observations from a re-analysis of the deposited data

How the results depend on the processing

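Of the 445 alternative values of the members' fitted differences, 402 kept direction and side of the threshold, 39 turned sign and 4 were newly called. The 4 are those of IGF2BP3 and HMGA2 without YTHDF2-NT replicate 2, and the turns include no called value. The number of members called was 0 in every comparison under every alternative, except that leaving out 1 library gave 0 to 2 in the YTHDF2 guide comparison and 0 to 2 in the effector comparison with the NT guide. LIN28A had few counts in every library. For the other members the SE of the main fit rests on the spread over all 4 groups, and what sets that spread was not tested.

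The number of all genes called moved far more than the members. It was 1 in the nuclease guide comparison, 0 in the YTHDF2 guide comparison, 0 for the difference of guide effects, 8 in the effector comparison with the NT guide and 1 with the SMARCA4 guide. In that order DESeq2 called 140, 1, 55, 108 and 102, and edgeR without a count filter 333, 214, 493, 360 and 296. With only the groups compared, 550 were called in the nuclease guide comparison and 660 in the effector comparison with the SMARCA4 guide. With the length trend removed the counts were 40 in the nuclease guide comparison, 3 for the difference of guide effects, and 17 and 39 in the effector comparisons. Leaving out 1 library gave 0 to 44, 0 to 1585, 0 to 1444, 1 to 1610 and 1 to 70 in the same order. The cause was not tested.

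The replicate numbers did not pair the libraries, as libraries with the same number had correlations of deviations from −0.198 to 0.0553 with a median of 0.003. The replicate block gave 2 calls among all genes for the nuclease guide comparison, 1 for the difference of guide effects, 4 in the effector comparison with the NT guide and 3 with the SMARCA4 guide, and changed no call of a member.

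Signs turned as follows. For IGF2BP1 the effector difference with the NT guide was −0.00102 with RLE size factors, −0.000985 with DESeq2 and −0.00784 without a filter. With the length trend removed it was −0.0484 with the SMARCA4 guide, and the difference of its guide effects −0.10. IGF2BP2 gave −0.0264 and LIN28B −0.0438 in the YTHDF2 guide comparison with the trend removed, and LIN28B −0.10 for the difference of guide effects.

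Leaving out 1 library, the log2 difference ran, for IGF2BP1, from −0.18 to 0.10 in the YTHDF2 guide comparison, from −0.0808 to 0.19 for the difference of guide effects and from −0.16 to 0.11 in the effector comparison with the NT guide. IGF2BP3, with main differences of 0.26 in the YTHDF2 guide comparison, 0.23 for the difference and −0.29 in the effector comparison with the NT guide, turned sign in these 3 without YTHDF2-NT replicate 1. It ran from −0.0269 to 0.10 in the nuclease guide comparison, −0.0410 to 0.75 in the YTHDF2 guide comparison, −0.0788 to 0.71 for the difference, −0.77 to 0.0166 in the effector comparison with the NT guide and −0.13 to 0.0466 with the SMARCA4 guide. LIN28B ran from −0.0447 to 0.0891, −0.13 to 0.23, −0.14 to 0.22 and −0.16 to 0.20 in the first 4 of these. HMGA2 ran from −0.15 to 0.10 for the difference.

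In TPM the log2 ratios of group means moved by more than the replicate SD in the nuclease guide comparison for IGF2BP1 (−0.29), IGF2BP2 (−0.21), IGF2BP3 (−0.30), LIN28B (−0.10) and HMGA2 (0.0234), and for IGF2BP2 in the YTHDF2 guide comparison (0.18). The same held for IGF2BP1 (−0.19) and IGF2BP2 (−0.28) in the effector comparison with the NT guide, and for IGF2BP1 (0.0943), IGF2BP2 (0.10) and HMGA2 (−0.10) with the SMARCA4 guide. The median gene moved by −0.11, 0.12, −0.16 and 0.07 in TPM in these 4 comparisons. The nuclease-NT TPM of IGF2BP3 includes IGF2BP3-215, a model with few counts.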
